A study of Mus musculus with 20 samples.

Results

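Endothelial cells sorted from tumours of TCRKO hosts were compared with those of wild type (WT) hosts over all expressed genes. The members of the comparison are the 3 libraries TCRKO_9765, TCRKO_9766 and TCRKO_9767 and the 4 libraries WT_9748, WT_9749, WT_9771 and WT_9772, 7 of 20 libraries in the series. All came from tumours of E0771, a mouse mammary carcinoma line, that grew orthotopically in fat pads of C57BL/6J hosts. Cells were enriched with beads against CD31, sorted as CD31-positive cells, and their total RNA was amplified and sequenced in bulk. The submitters class TCRKO hosts as deficient for CD4 T cells and WT hosts as competent. The labels give no allele for TCRKO, no age, and no statement that each library is a separate animal. The p-values therefore cover the spread among sequenced samples alone, which may be technical. That spread was estimated over all 20 libraries of the series and not over the 7 compared alone. A second set of competent hosts without WT, 3 libraries labelled CD8KO and 3 labelled Tie2Cre (a Cre recombinase transgene active in endothelial and blood cells), was set against the same 3 TCRKO libraries.

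Tumour endothelium lines the vessels through which blood cells, oxygen and nutrients reach the tumour. Venous endothelial cells carry most of the selectins and adhesion molecules that slow leukocytes, arterial cells carry Notch and ephrin-B2 signalling, and tip cells lead new sprouts. T cells act on endothelium through cytokines, of which interferon-gamma is the best known, since it induces antigen presentation genes, guanylate-binding proteins and chemokines.

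Total counts were 7871229, 10741265 and 4374634 in TCRKO and 2014932 to 8946701 in WT. Protein-coding genes, without satellite-like, abundant and mitochondrial RNA, held 840141 to 1799117 counts in TCRKO. In WT they held 1521495, 1105846, 199922 and 1142687 counts in WT_9748, WT_9749, WT_9771 and WT_9772. Satellite-like genes took 0.482%, 0.0111% and 2.53% of TCRKO counts, against 0.174%, 0.019%, 47.1% and 0.983% of WT counts, so WT_9771 stood apart from all other libraries of the comparison. In that library 3 counts correspond to 2.46 CPM (counts scaled to the effective library size), and such floors cover counting error only. Each result below is therefore also given without WT_9771 where that bears on it.

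Endothelial markers were high in every library. Pecam1, which encodes CD31, stood at 826, 756 and 534.5 CPM in TCRKO and at 1151, 1077, 435 and 1207 CPM in WT, and Cdh5, the VE-cadherin of endothelial junctions, was at 719 CPM or more in every library. Receptor genes of T cells could not test the host label: the Trac counts were 5, 9 and 3 in TCRKO, against 0, 0, 1 and 0 in WT, Trbc2 had 0 in all, and Cd3e had 1 count over all 7 libraries. Of the 3 libraries labelled CD8KO all carried Cd8a RNA, at 48.7, 39.0 and 69.7 CPM. It reached at most 1.14 CPM in Tie2Cre and 2.46 CPM in TCRKO and WT. Every statement on the libraries labelled CD8KO therefore rests on that label.

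The edgeR quasi-likelihood test called 4 of 14876 genes (0.0269%) at a Benjamini-Hochberg adjusted p under 0.05, all with an adjusted p of 0.0338. Fbn1 and Cadm3 fell in TCRKO, and Trp53inp2 and Col6a2 rose. In bulk samples fewer cells of a type and less RNA per cell cannot be told apart. At an unadjusted p under 0.05 there were 1288 genes (8.66%), of which 694 (4.67%) were lower and 594 (3.99%) higher in TCRKO. Whatever the p-value, 8425 of the 14876 genes had a negative and 6411 a positive change. With no overlap between the groups 2.1% were lower and 5.58% higher. The counts of each list below are to be read beside these shares. DESeq2 called 177 genes (1.19%) and limma-voom with sample weights 5 (0.0336%).

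Fbn1 encodes fibrillin-1, the backbone of extracellular microfibrils, and lies on chromosome 2 from 125300594 to 125507993 (minus strand, GRCm38). It stood at 0.739, 2.26 and 1.14 CPM in TCRKO and at 45.0, 7.43, 33.6 and 28.2 CPM in WT, a log2 change of -4.34 ± 0.78 (SE). Every TCRKO value lay below every WT value, and WT_9749 was the lowest of WT. Cadm3, a nectin-like cell adhesion molecule on chromosome 1 (173333258 to 173367695), stood at 0.616, 1.07 and 0.227 CPM in TCRKO and at 9.27, 30.8, 2.46 and 25.2 CPM in WT (-4.65 ± 0.84). Its groups did not overlap either, with WT_9771 the lowest of WT at 3 counts. Cadm3 shares bases with Ackr1 (173331886 to 173333750), a gene on the same strand that is described below with venous genes. Whether reads of Ackr1 were counted for Cadm3 was not tested.

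Trp53inp2, a regulator of autophagy on chromosome 2 (155381059 to 155389850), stood at 30.5, 33.6 and 25.7 CPM in TCRKO and at 2.65, 6.58, 0 and 2.27 CPM in WT (3.26 ± 0.59). All TCRKO libraries lay above all WT libraries. Col6a2, a chain of collagen VI on chromosome 10 (76595762 to 76623630), stood at 12.1, 19.6 and 20.7 CPM in TCRKO and at 0, 0, 0.82 and 0.189 CPM in WT. The sums were 354 counts in TCRKO, against 2 in WT. Their depth-adjusted ratio was 146, and its exact 95% Poisson interval, for counting error, ran between 40.1 and 1210. No fitted fold is given for such a gene.

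Fbn1 and Cadm3 were also lower in TCRKO than in other hosts than WT, and Trp53inp2 and Col6a2 did not pass there. Against the libraries labelled CD8KO and Tie2Cre, edgeR called 8 genes (0.0538%). At an unadjusted p under 0.05 there were 848 (5.7%), and 1.85% of genes lay lower and 1.75% higher with no overlap. The 8 were all lower in TCRKO: Fbn1, Cadm3, Col15a1, Il6st, Masp1, Fbln2, Selp and Bgn. Masp1, a protease of the lectin pathway of complement, had 0 counts in TCRKO, against 452 counts in the libraries labelled CD8KO and Tie2Cre and 87 in WT. With 3 counts put in for the 0 of the TCRKO group, it was 54.6-fold lower than in the 6 libraries and 35.2-fold lower than in WT. The exact 95% intervals of the ratio, for counting error, reached up to 0.0226 and 0.0357. Fbn1 was lower by the same fit (-4.47 ± 0.77, adjusted p = 0.0164), with 20.1, 28 and 51.6 CPM as lowest, median and highest of the 6 other libraries. Cadm3 was lower as well (-5.14 ± 0.84, adjusted p = 0.0126). Trp53inp2 had 18.6, 22.7 and 26.4 CPM as lowest, median and highest in those 6, and its difference from TCRKO was 0.41 ± 0.50 (adjusted p = 0.995), so WT was the group that stood apart. Col6a2 reached at most 4.64 CPM there (3.04 ± 0.82, adjusted p = 0.388). Both comparisons share the TCRKO libraries, so they are not independent of each other.

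**Figure D1:**
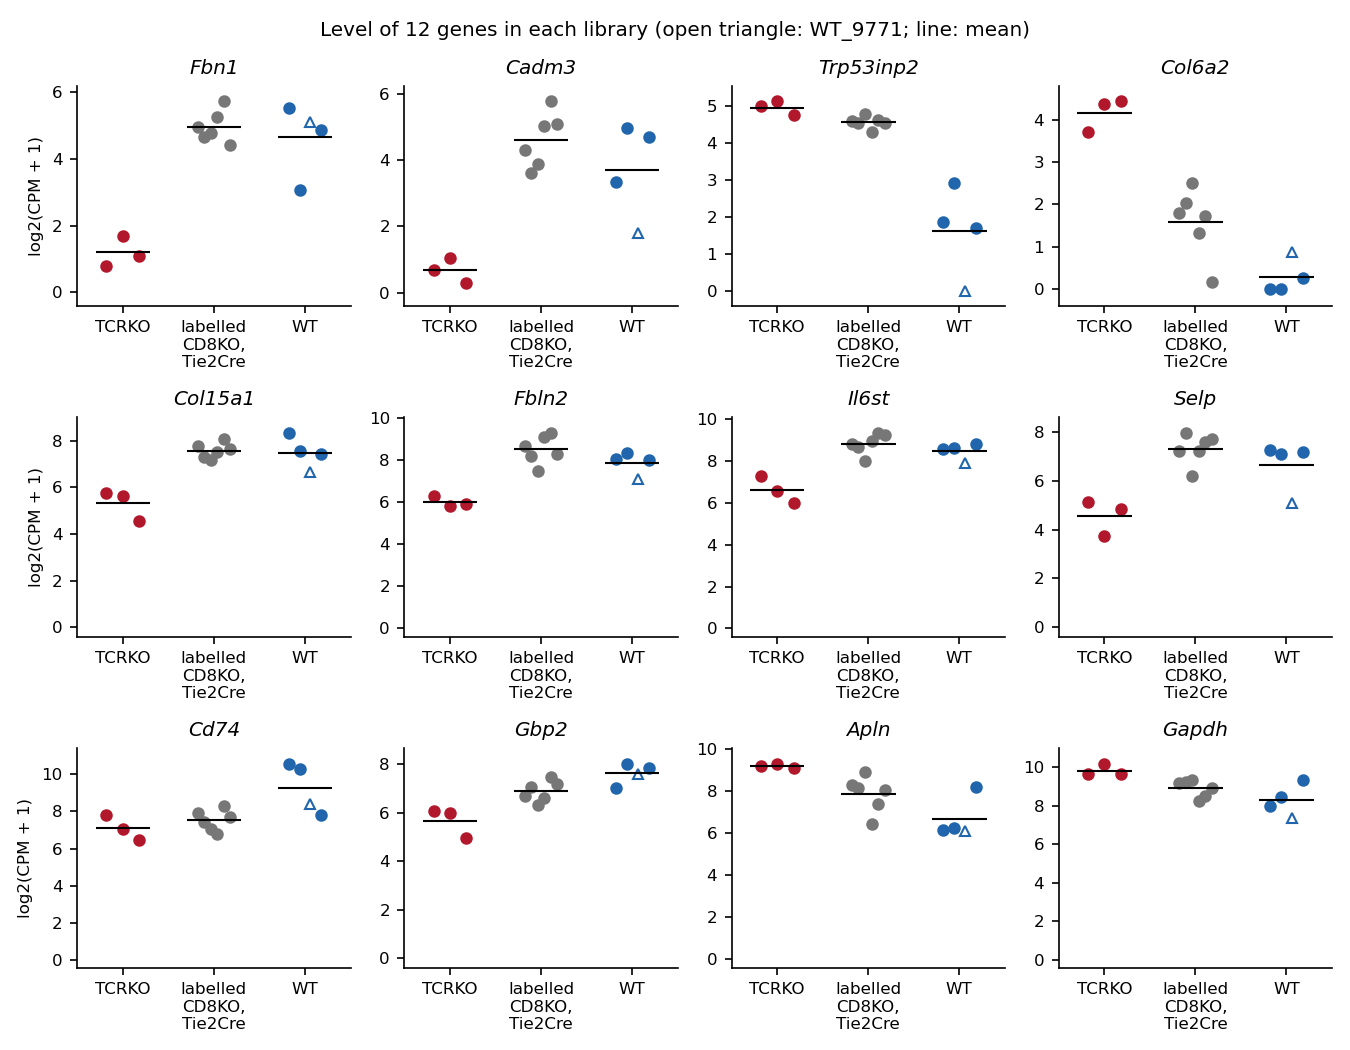
Level of 12 genes as log2(CPM + 1) on the vertical axis, 1 point per library, in TCRKO (red), the libraries labelled CD8KO and Tie2Cre (grey) and WT (blue, with WT_9771 as an open triangle); lines are means. Fbn1, Cadm3, Col15a1, Fbln2, Il6st and Selp were low in TCRKO against both other sets, whereas Trp53inp2 was low in WT.

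Fbn1 was the only 1 of 14 microfibril and elastic fibre genes tested to pass the adjusted threshold. Of the 14, 8 had a negative and 6 a positive change, near the split over all genes (8425 negative and 6411 positive). At an unadjusted p under 0.05, 4 were lower and 1 higher, where 4.67% of all genes were lower and 3.99% higher. Between the groups 3 did not overlap, all lower (2.1% of all genes were lower with no overlap, and 5.58% higher). The list's median log2 change was -0.58, against -0.20 over all genes tested, but 0.23 without WT_9748 and 0.25 with WT_9771 and WT_9772 as the only WT libraries. The median of all genes itself was -0.32 with the RLE scaling of DESeq2 and 0.06 with limma-voom, so list medians are read relative to it. Fbln2, fibulin-2 of basement membranes and elastic fibres, stood at 76.8, 55.0 and 59.3 CPM in TCRKO and at 263, 320.1, 136 and 256 CPM in WT (-1.94 ± 0.43, adjusted p = 0.14). The TCRKO libraries were all lower, with WT_9771 again the lowest of WT. Eln, which encodes elastin, stood at 6.53, 0.713 and 0.909 CPM in TCRKO and at 38.6, 18, 4.10 and 18.6 CPM in WT (-2.86 ± 0.87, adjusted p = 0.401). The groups overlapped there through TCRKO_9765 and WT_9771. Fbln5, fibulin-5, which binds elastin, also overlapped, with 21.2, 16.3 and 13.9 CPM in TCRKO and 14.4, 28.9, 59.9 and 85.5 CPM in WT (-1.46 ± 0.51). Against the libraries labelled CD8KO and Tie2Cre, 5 members were lower and 0 higher at an unadjusted p under 0.05, where 2.94% of all genes were lower and 2.76% higher. Markers of pericytes and smooth muscle, cells that also make matrix, had a negative change in 8 of 10 members tested, with a median of -1.48 (-0.64 without WT_9771), and 0 were lower and 1 higher at an unadjusted p under 0.05. Their values are given with those of other cell types below, and their part in the matrix genes was not tested.

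Basement membrane genes had a median of -0.36 over 17 members, with 3 lower and 1 higher at an unadjusted p under 0.05, and a median of 0.14 when WT_9771 and WT_9772 were the only WT libraries. In the comparison with CD8KO and Tie2Cre 1 was lower and 0 higher, with a median of -0.19. Col15a1, a collagen at the outer face of vascular basement membranes, stood at 53.5, 47.9 and 22.7 CPM in TCRKO and at 323, 186, 99.2 and 170.2 CPM in WT (-2.23 ± 0.43, adjusted p = 0.0619). It did not overlap between the groups, and it was called against the libraries labelled CD8KO and Tie2Cre (-2.21 ± 0.41, adjusted p = 0.0293). Lama5, the laminin alpha 5 chain, stood at 119.8, 159.6 and 128 CPM in TCRKO and at 505, 329.9, 130.4 and 212 CPM in WT (-1.12 ± 0.43), overlapping only through WT_9771. Sparc, a matricellular protein that binds collagen IV, lay on the other side with 2298, 2760 and 2365 CPM in TCRKO and 1202, 1911, 583 and 1738 CPM in WT (0.86 ± 0.32, adjusted p = 0.535), and did not overlap.

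Among matricellular proteins and proteoglycans 2 members were lower and 2 higher of 17, with a median of -0.26 that lay between -0.66 and 0.01 over the alternatives. Bgn, the proteoglycan biglycan, stood at 46.3, 23 and 13.4 CPM in TCRKO and at 49.7, 149.9, 27.1 and 213 CPM in WT (-2.0 ± 0.54, adjusted p = 0.278), overlapping through WT_9771. It was called against the libraries labelled CD8KO and Tie2Cre, which held 198 to 284 CPM (-3.10 ± 0.56, adjusted p = 0.0246). Sdc1, the cell surface proteoglycan syndecan-1, was higher, with 15.6, 34.0 and 25.9 CPM in TCRKO and 0, 4.67, 0 and 3.6 CPM in WT (3.50 ± 1.11, adjusted p = 0.414). Itgb4, the laminin receptor subunit integrin beta 4, stood at 16.6, 13.2 and 2.96 CPM in TCRKO and at 48.5, 55.8, 14.8 and 110.2 CPM in WT (-2.39 ± 0.63, adjusted p = 0.268), overlapping through WT_9771. It was the 1 member of 15 integrins under an unadjusted p of 0.05.

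Interstitial collagens split, with a median of 0.08 that was -0.81 with WT_9771 and WT_9772 as the only WT libraries and 2.60 without WT_9771. Of 13 members 4 were higher and 1 lower at an unadjusted p under 0.05, all at low levels, with sums over the list of 30.3 to 185 CPM in TCRKO and 20.8 to 51.7 CPM in WT. Col6a1, which pairs with Col6a2 in collagen VI, stood at 6.28, 65.3 and 28 CPM in TCRKO and at 0, 0, 0 and 8.14 CPM in WT (3.90 ± 1.37, adjusted p = 0.506). Col5a3, a collagen V chain, stood at 3.20, 39.9 and 13.0 CPM in TCRKO and at 0, 2.97, 0.82 and 0.189 CPM in WT. Beside these genes, fibroblast markers summed to 12.5 to 22.7 CPM in TCRKO and 1.06 to 49.2 CPM in WT over 14 markers, with Pdgfra at 0, 5.46 and 9.10 CPM in TCRKO and 0, 0, 4.10 and 0 CPM in WT. Their part in the collagen values was not tested.

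Of 11 venous members tested 9 had a negative change in TCRKO, and 6 were lower and 0 higher at an unadjusted p under 0.05, with a median of -1.06 (-1.26 without WT_9771). Of all 14876 genes, 8425 had a negative change, and 4.67% were lower at that threshold. Selp, P-selectin, stood at 34.5, 12.2 and 27.5 CPM in TCRKO and at 155, 137, 32.8 and 147 CPM in WT (-2.26 ± 0.52, adjusted p = 0.145). It overlapped through WT_9771, which lay far below the other WT libraries, and without that library the change was -2.57 ± 0.45 (adjusted p = 0.0165). Vwf, the von Willebrand factor of coagulation, stood at 132, 134 and 89.6 CPM in TCRKO and at 1048, 379, 175 and 297 CPM in WT, with no overlap. Ackr1, a chemokine-binding receptor of venules, was at 8.25, 6.65 and 7.05 CPM in TCRKO and at 11.3, 45.0, 18.1 and 43.5 CPM in WT, also with no overlap. Since Ackr1 shares bases with Cadm3, both genes may draw on the same reads and are not separate results.

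Of 16 arterial members 15 had a negative change and 5 were lower at an unadjusted p under 0.05, with a median of -0.76 and 1 member with no overlap. Over all genes 4.67% were lower at that threshold and 2.1% lower with no overlap. Efnb2, the arterial ligand ephrin-B2, stood at 28, 11.3 and 15.9 CPM in TCRKO and at 27.8, 69.6, 19.7 and 51.9 CPM in WT (-1.21 ± 0.51, adjusted p = 0.557). Gja5, the arterial gap junction protein connexin 40, stood at 47.5, 8.79 and 7.96 CPM in TCRKO and at 88.6, 59.2, 52.5 and 11.9 CPM in WT (-1.30 ± 0.63). Jag1, a Notch ligand, stood at 5.17, 8.79 and 6.59 CPM in TCRKO and at 53.3, 12.5, 33.6 and 2.65 CPM in WT (-1.89 ± 0.82). All 3 genes overlapped between the groups. Against the libraries labelled CD8KO and Tie2Cre, 5 arterial members were lower and 0 higher, with a median of -0.60.

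With all 4 WT libraries general endothelial identity genes had a median of -0.18 over 29 members (up to 0.25 over the alternatives). At an unadjusted p under 0.05 there was 1 member in each direction. Without WT_9771 the median was -0.42, with 7 lower and 1 higher (4.51% and 5.72% of all genes). Against CD8KO and Tie2Cre it was -0.33, with 4 lower and 1 higher (2.94% and 2.76%). The list summed to 5352 to 7256 CPM in TCRKO, 4172 CPM in WT_9771 and 8332 to 9869 CPM in the other WT libraries. Gpihbp1, which carries lipoprotein lipase across capillaries, was higher, with 306, 388 and 395 CPM in TCRKO and 108, 198, 162 and 199.5 CPM in WT (1.12 ± 0.41, adjusted p = 0.528), and did not overlap. Ptprb, the endothelial phosphatase VE-PTP, stood at 439.8, 287 and 261 CPM in TCRKO and at 781, 783, 249 and 663 CPM in WT (-0.91 ± 0.37). Car4, a carbonic anhydrase of capillaries, stood at 3.94, 4.99 and 0.682 CPM in TCRKO and at 16.9, 31.2, 3.28 and 21.6 CPM in WT (-2.50 ± 0.76). Both overlapped through WT_9771 alone.

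Tip cell genes had a positive change in 19 of 25 members, where 6411 of all 14876 genes had one, and a median of 0.36. At an unadjusted p under 0.05, 2 were higher and 0 lower, where 3.99% of all genes were higher and 4.67% lower. So few members do not set the list apart from all genes. Without WT_9771 2 tip cell genes were higher and 2 lower, with a median of 0.10. Apln, the secreted ligand of the apelin receptor, stood at 577, 626 and 534 CPM in TCRKO and at 68.5, 73.5, 66.4 and 288 CPM in WT (2.22 ± 0.46, adjusted p = 0.103). All TCRKO libraries lay above all WT libraries, and WT_9772 was the highest of WT. Against the libraries labelled CD8KO and Tie2Cre, with 85.3, 269 and 472 CPM as lowest, median and highest, the difference was 1.24 ± 0.41 (adjusted p = 0.636). Aplnr, its receptor, lay lower with overlap and stood at 229.8, 262 and 133 CPM in TCRKO and at 380, 421, 231 and 459 CPM in WT (-0.84 ± 0.41). Pgf, placental growth factor, stood at 61.5, 80.2 and 62.8 CPM in TCRKO and at 32.3, 15.9, 9.84 and 29.0 CPM in WT (1.63 ± 0.62, adjusted p = 0.535), with no overlap. Angptl2, a secreted angiopoietin-like protein, was at 19.2, 86.7 and 38.9 CPM in TCRKO and at 4.14, 4.25, 4.92 and 0.757 CPM in WT (3.81 ± 0.83, adjusted p = 0.121).

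In the interleukin 6 and STAT3 list 3 of 14 members were lower and 1 higher at an unadjusted p under 0.05, with a median of -0.95. Il6st, the gp130 receptor subunit shared by this cytokine family, stood at 155, 93.6 and 62.3 CPM in TCRKO and at 386, 389, 242 and 444 CPM in WT (-1.82 ± 0.37, adjusted p = 0.103). The groups did not overlap, and the gene passed without WT_9771 (-1.97 ± 0.35, adjusted p = 0.0165). Lrg1, a secreted STAT3 target, stood at 107, 71.0 and 48.0 CPM in TCRKO and at 102, 150.1, 85.3 and 289.6 CPM in WT (-1.06 ± 0.45), with overlap. Lists share some members, Lrg1 being among the venous genes too, so they are not independent of each other. Il6 itself was at 1.60 CPM or less in TCRKO and at 0.497, 10.8, 4.92 and 5.49 CPM in WT. Pim1, a serine/threonine kinase whose gene is a STAT target, went the other way with 22.7, 21.7 and 30.0 CPM in TCRKO and 2.98, 4.03, 0.82 and 8.71 CPM in WT (2.52 ± 0.63, adjusted p = 0.233), and did not overlap.

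In the VEGF and Notch lists the medians were -0.47 over 8 members and -0.41 over 16, but 0.04 and 0.46 with WT_9771 and WT_9772 as the only WT libraries. Vegfa, the main angiogenic growth factor, had 177 counts in TCRKO, against 2 in WT (ratio 72.9, interval 19.9 to 607), but its level was 0.862, 11.3 and 17.1 CPM in TCRKO and 0.82 CPM or less in WT. Notch2, a Notch receptor, stood at 59.4, 41.5 and 35.2 CPM in TCRKO and at 14.7, 26.1, 25.4 and 2.46 CPM in WT (1.42 ± 0.67, adjusted p = 0.573), with no overlap. Notch1, the main arterial receptor, stood at 109.6, 141 and 92.1 CPM in TCRKO and at 502, 200.4, 79.6 and 201 CPM in WT (-1.11 ± 0.57), overlapping only through WT_9771.

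Of 25 interferon-gamma genes tested all 25 had a negative change in TCRKO, 12 were lower and 0 higher at an unadjusted p under 0.05, and 10 did not overlap, all lower. Of all 14876 genes, 8425 had a negative change, 4.67% were lower at that threshold and 2.1% were lower with no overlap. The median of the interferon-gamma list was -1.22, and -1.30 without WT_9771. With CD8KO and Tie2Cre in place of WT 6 were lower and 0 higher, and the median was -0.58. Serping1, the C1 inhibitor, stood at 0.985, 8.43 and 3.18 CPM in TCRKO and at 24, 26.1, 28.7 and 34.1 CPM in WT (-2.73 ± 0.73, adjusted p = 0.268). Gbp2, a guanylate-binding protein on chromosome 3, stood at 65.8, 62.5 and 29.6 CPM in TCRKO and at 128, 259.8, 194 and 229.8 CPM in WT (-1.94 ± 0.40, adjusted p = 0.103). Neither gene overlapped. The type I interferon list had a median of 0.06 (-0.10 without WT_9771) with 0 of 22 members under an unadjusted p of 0.05 by edgeR. That the 2 lists differ was not tested.

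The promoters of 3 genes are shown as examples of lists described here: Gbp2 for interferon-gamma genes, Cxcl9 for chemokines, and Pgk1 for glycolysis (described below). Each runs from 250 bases before to 50 bases after the start of the gene, from RefSeq on GRCm38.p6, on the strand of the gene. Capitals mark matches, on either strand, to an interferon-stimulated response element (GAAA, any 2 bases, GAAA) in Gbp2 at chr3:142620413-142620712 (plus strand), to an NF-kappaB motif (GGG, any 2 bases, TTCC) in Cxcl9 at chr5:92328030-92328329 (minus strand), and to the hypoxia element core (ACGTG) in Pgk1 at chrX:106186850-106187149 (plus strand).
Gbp2: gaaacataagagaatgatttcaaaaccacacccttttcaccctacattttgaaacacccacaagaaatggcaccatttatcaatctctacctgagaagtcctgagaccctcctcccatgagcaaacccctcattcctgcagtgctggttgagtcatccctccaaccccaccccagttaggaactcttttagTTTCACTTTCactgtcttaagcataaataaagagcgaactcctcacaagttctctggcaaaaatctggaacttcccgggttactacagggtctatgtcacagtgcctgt
Cxcl9: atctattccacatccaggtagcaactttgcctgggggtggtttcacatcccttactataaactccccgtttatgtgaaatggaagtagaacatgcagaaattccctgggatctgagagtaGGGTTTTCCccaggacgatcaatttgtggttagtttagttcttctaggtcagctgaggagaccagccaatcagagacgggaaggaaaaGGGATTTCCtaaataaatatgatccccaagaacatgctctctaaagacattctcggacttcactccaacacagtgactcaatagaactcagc
Pgk1: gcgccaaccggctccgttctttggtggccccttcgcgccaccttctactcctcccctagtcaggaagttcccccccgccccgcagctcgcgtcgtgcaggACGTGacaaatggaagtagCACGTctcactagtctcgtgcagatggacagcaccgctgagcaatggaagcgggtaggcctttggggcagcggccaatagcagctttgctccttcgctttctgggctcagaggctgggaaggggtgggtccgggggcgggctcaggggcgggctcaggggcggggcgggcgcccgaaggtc
The first motif was in 10 of 15 interferon-gamma promoters that had an entry (66.7%), against 3.49% of all 27025 promoters. The second was in 4 of 11 chemokine promoters (36.4%), against 5.72%. The third was in 8 of 16 glycolysis promoters (50%), against 19.7%. These pairs are examples, since other motifs were searched as well and all over 27 lists. The third was also in 39.1% of cell cycle and 38.5% of Notch promoters, and the first in 0 of 4 class II promoters. A match describes the sequence only and does not show binding.

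MHC class II genes, which present antigen to CD4 T cells, were lower in 5 of 7 members tested at an unadjusted p under 0.05, with a median of -1.65. Over all genes 4.67% were lower at that threshold. Cd74, the invariant chain, stood at 226, 129.9 and 88.7 CPM in TCRKO and at 1511, 1222, 337 and 227 CPM in WT (-2.48 ± 0.56, adjusted p = 0.145). The groups did not overlap, but WT_9772 and TCRKO_9765 lay next to each other. H2-Aa, an I-A chain, stood at 71.1, 33.3 and 14.3 CPM in TCRKO and at 152, 183, 27.9 and 133 CPM in WT (-1.65 ± 0.53), overlapping through WT_9771. Ciita, the class II transactivator, was at 3.41 CPM or less in TCRKO and at 19.2, 13.8, 4.10 and 1.89 CPM in WT. Against the libraries labelled CD8KO and Tie2Cre the class II median was -0.39 with 0 of 7 members under an unadjusted p of 0.05 by edgeR, and Cd74 differed by -0.39 ± 0.48 (adjusted p = 0.995). Those 6 libraries held 111, 188 and 311 CPM of Cd74 as lowest, median and highest. Whether the 2 class II differences differ from each other was not tested.

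Chemokines and their atypical receptors were lower in 5 of 15 members at an unadjusted p under 0.05, with 0 higher and a median of -1.39. Over all genes 4.67% were lower and 3.99% higher at that threshold. In the comparison with CD8KO and Tie2Cre 2 were lower and 0 higher, with a median of -0.95. Cxcl9, a T cell attracting chemokine induced by interferon-gamma and counted in that list too, stood at 60.0, 41.0 and 55.0 CPM in TCRKO. In WT it was at 95.0, 209, 162 and 80.8 CPM (-1.39 ± 0.54, adjusted p = 0.535). Cx3cl1, a membrane-bound chemokine, stood at 7.27, 5.82 and 19.1 CPM in TCRKO and at 31.3, 43.7, 84.5 and 23.1 CPM in WT (-2.08 ± 0.61). Neither overlapped with WT. From CD8KO and Tie2Cre Cxcl9 differed by -0.37 ± 0.48 (adjusted p = 1.0) and Cx3cl1 by -0.99 ± 0.56 (adjusted p = 0.894). Cxcl16, another membrane-bound chemokine, stood at 11.6, 9.27 and 8.64 CPM in TCRKO and at 83.1, 41.2, 6.56 and 56.8 CPM in WT, overlapping through WT_9771. Tnfsf10, which encodes the death ligand TRAIL, stood at 6.28, 21.6 and 13.6 CPM in TCRKO and at 37.9, 82.6, 28.7 and 56.0 CPM in WT (-1.89 ± 0.63), with no overlap. In the adhesion list 5 of 15 members were lower and 1 higher, with a median of -0.85 that was -0.23 without WT_9771.

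Metabolic lists lay on the higher side. Of 16 glycolysis genes 4 were higher and 0 lower at an unadjusted p under 0.05, 6 were higher with no overlap, and the median was 0.66. Over all genes 3.99% were higher at that threshold and 5.58% higher with no overlap. Gapdh stood at 793, 1149 and 799.6 CPM in TCRKO and at 253, 343, 162 and 635 CPM in WT (1.39 ± 0.36, adjusted p = 0.244). Pgk1, phosphoglycerate kinase, stood at 61.6, 39.9 and 62.3 CPM in TCRKO and at 19.5, 18.3, 14.8 and 26.9 CPM in WT (1.45 ± 0.51), and Tpi1, triosephosphate isomerase, at 71.3, 111 and 93.2 CPM in TCRKO and 41.2, 27.8, 4.10 and 53 CPM in WT. None of the 3 overlapped. The count of 4 was the same without WT_9771 (median 0.40) and against the libraries labelled CD8KO and Tie2Cre (median 0.67). The hypoxia list had a median of 0.17 with 1 member in each direction, and a median of -0.28 under a stricter filter on low counts. Epas1, the hypoxia-inducible factor HIF-2 alpha of endothelium, stood at 154, 107 and 152 CPM in TCRKO and at 542, 270, 112 and 263 CPM in WT (-1.11 ± 0.43), overlapping through WT_9771.

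Of 16 genes of the amino acid response and one-carbon metabolism 5 were higher and 0 lower, with a median of 0.37 (0.98 without WT_9771). Phgdh, the first enzyme of serine synthesis, stood at 7.27, 16.6 and 14.3 CPM in TCRKO and at 0, 1.49, 0.82 and 1.70 CPM in WT (3.63 ± 1.18, adjusted p = 0.427). Asns, asparagine synthetase, stood at 5.05, 13.5 and 19.1 CPM in TCRKO and at 0.662, 3.61, 4.10 and 4.16 CPM in WT (2.02 ± 0.75). Neither overlapped. Slc7a5, the large neutral amino acid transporter, stood at 15.5, 62.2 and 70.0 CPM in TCRKO and at 10.1, 2.33, 7.38 and 21.6 CPM in WT, with overlap. Cholesterol synthesis had 2 of 19 members higher and 0 lower (median 0.44). Fdps, farnesyl diphosphate synthase, stood at 5.67, 9.98 and 19.6 CPM in TCRKO and at 1.16, 1.49, 1.64 and 2.46 CPM in WT (2.78 ± 0.90). It did not overlap between the groups and did not pass the threshold.

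Nuclear genes of oxidative phosphorylation were higher in 7 of 34 members, with 0 lower and a median of 0.63. Cox6a1, a cytochrome c oxidase subunit, stood at 17.5, 28.9 and 50.9 CPM in TCRKO and at 3.81, 8.28, 6.56 and 11.7 CPM in WT (2.08 ± 0.66, adjusted p = 0.421). Without WT_9771 the median was 0.62, and the count of 7 was 1. With CD8KO and Tie2Cre in place of WT 0 of 34 members were under an unadjusted p of 0.05 by edgeR, and the median was 0.11. Cytosolic ribosomal protein genes were positive in 40 of 40 members and higher in 27 at an unadjusted p under 0.05, with a median of 1.18. Of all 14876 genes, 6411 had a positive change, and 3.99% were higher at that threshold. Against CD8KO and Tie2Cre 2 ribosomal protein genes were higher and 0 lower, with a median of 0.49. Rpl41, another ribosomal protein gene that was not on the list, stood at 85.8, 185 and 214 CPM in TCRKO and at 10.4, 20.6, 14.8 and 46.6 CPM in WT (2.80 ± 0.66, adjusted p = 0.184). Ribosomal genes have many near-identical copies, as do Gapdh and Ftl1 (ferritin light chain, 1.67 ± 0.42), so their single values are uncertain.

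Cell cycle genes had a median of 0.53 over 28 members, 20 of them with a positive change, and 3 were higher and 1 lower at an unadjusted p under 0.05. Ccnd2, cyclin D2, stood at 49.3, 36.5 and 62.3 CPM in TCRKO and at 11.6, 11.5, 21.3 and 21.2 CPM in WT (1.60 ± 0.52, adjusted p = 0.425), and Cdk6, its kinase partner, at 29.9, 43.8 and 35.5 CPM in TCRKO and 12.6, 24.4, 10.7 and 10.8 CPM in WT. Mki67, the proliferation antigen Ki-67, lay on the other side with 30.1, 38.8 and 32.1 CPM in TCRKO and 70.7, 109.8, 44.3 and 73.6 CPM in WT (-1.15 ± 0.41, adjusted p = 0.528). None of the 3 overlapped, and 8 members of the list had a negative change. Heat shock proteins were higher in 3 of 15 members (median 0.41), among them Hspb8, a small heat shock protein (2.83 ± 0.81, adjusted p = 0.362). Actin and contractile genes had 4 higher and 1 lower of 24 (median 0.47), and 2 higher and 3 lower without WT_9771 (median 0.24). In the comparison with CD8KO and Tie2Cre the actin count was 2 higher and 0 lower (median 0.11), and that of heat shock proteins 1 higher. Tuba1b, an alpha tubulin, stood at 372, 645 and 420.2 CPM in TCRKO and 151, 332, 147 and 243 CPM in WT.

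**Figure D2:**
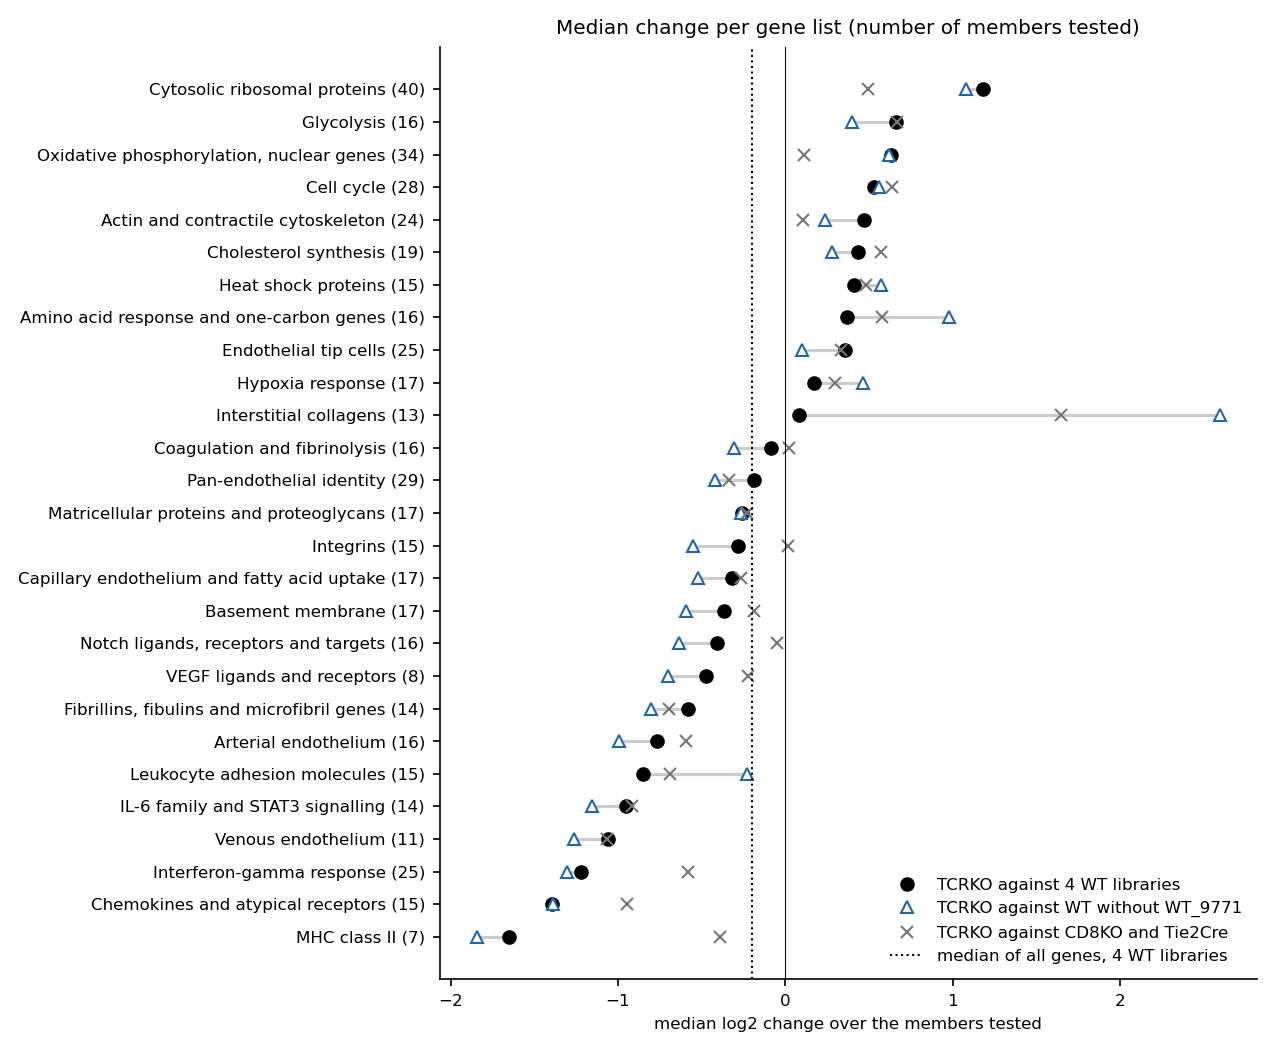
Median log2 change of 27 gene lists over their tested members (horizontal axis), for TCRKO against all 4 WT libraries (black), without WT_9771 (blue triangles) and against the libraries labelled CD8KO and Tie2Cre (crosses); the dotted line is the median of all genes (-0.20). MHC class II lies lowest at -1.65 and ribosomal proteins highest at 1.18, and interstitial collagens move most without WT_9771, to 2.60.

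The remaining genes with the smallest p among those with a mean of at least 10 CPM had no list. Kat6b, a histone acetyltransferase, stood at 5.67, 13.8 and 11.1 CPM in TCRKO and at 80.9, 51.4, 51.7 and 17.8 CPM in WT (-2.31 ± 0.51, adjusted p = 0.138). Tspan15, a tetraspanin that partners the sheddase ADAM10, stood at 4.19, 7.01 and 7.05 CPM in TCRKO and at 52.3, 20.2, 13.1 and 39.4 CPM in WT (-2.37 ± 0.58). Serpina3f, a protease inhibitor of a family of near-identical copies, was lower as well (-4.65 ± 0.99). On the higher side stood Qpctl, a glutaminyl cyclase of the Golgi (2.77 ± 0.67), Rras, a small GTPase of endothelial cells (1.74 ± 0.44), and Ssr2, a subunit of the translocon-associated complex (1.68 ± 0.44). Rras stood at 43.8, 43.8 and 45.9 CPM in TCRKO and at 21.2, 12.5, 4.92 and 13.6 CPM in WT. None of these 6 genes passed, and none overlapped between the groups. Against the libraries labelled CD8KO and Tie2Cre the difference of Rras was 0.28 and that of Qpctl 0.82.

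Transcript length moved with the comparison. Over 4111 protein-coding genes with a mean of at least 10 CPM, those whose longest annotated transcript is under 1000 bases had a median change of 1.27 (96 genes, 55 higher and 0 lower at an unadjusted p under 0.05). The median was lower in each longer class, at 0.43 at 1000 to 2000 bases, -0.01 at 2000 to 4000, -0.25 at 4000 to 8000 and -0.44 at 8000 bases and over. The shortest class took 3.39%, 3.87% and 5.22% of the CPM of these genes in TCRKO and 0.755%, 1.96%, 1.91% and 2.62% in WT, so the groups did not overlap. Without ribosomal protein genes the shortest class still had a median of 1.23 (67 genes). The same order held without WT_9771, with 1.10 in the shortest and -0.45 in the longest class, and against the libraries labelled CD8KO and Tie2Cre, with 0.65 and -0.24.

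With the median of each member's length class taken off, the oxidative phosphorylation list went to 0.18 (0.02 without WT_9771), ribosomal proteins to 0.68, glycolysis to 0.42 and basement membrane genes to -0.03. Venous genes were at -1.26, MHC class II at -1.91, interferon-gamma genes at -1.03, arterial genes at -0.60 and microfibril genes at -0.43. The part of transcript length in the single results was not tested otherwise.

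**Figure D3:**
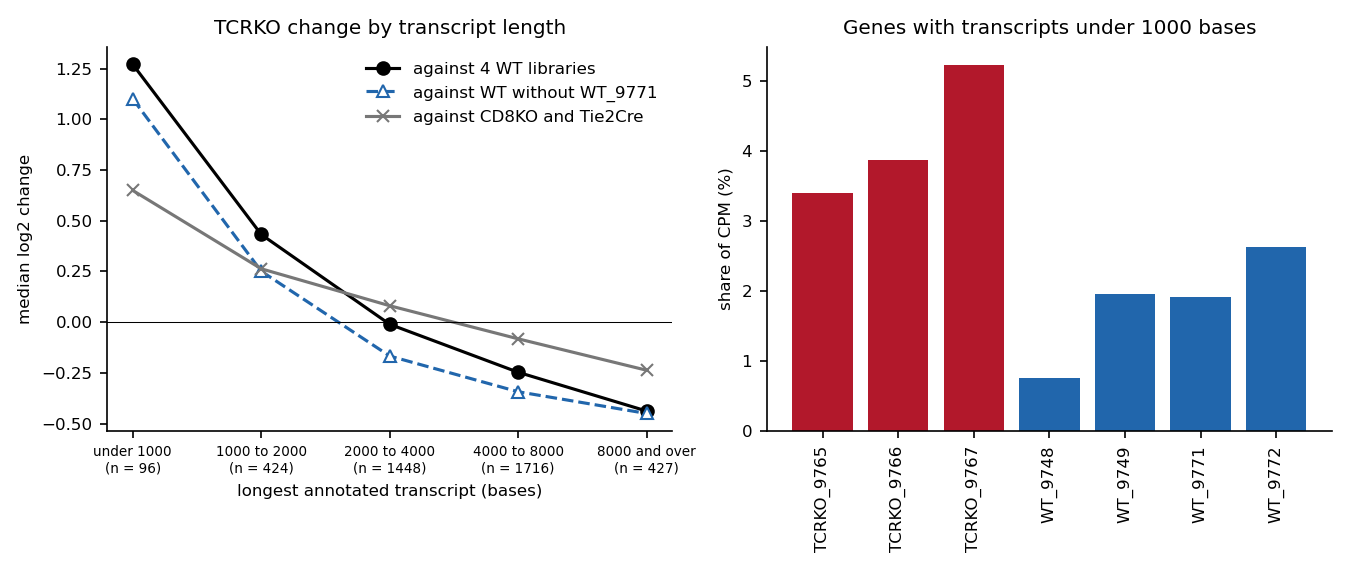
Left, median log2 change of TCRKO (vertical axis) by length class of the longest annotated transcript, against 4 WT libraries, without WT_9771, and against the libraries labelled CD8KO and Tie2Cre; right, share of CPM in genes with transcripts under 1000 bases per library. The median is 1.27 in the shortest class and -0.44 in the longest, and all 3 TCRKO libraries (red) lie above the 4 WT libraries (blue).

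How far the comparison rests on WT_9771 was read by leaving out each WT library in turn. Without WT_9771 edgeR called 10 of 14046 genes (0.0712%), 7 lower and 3 higher. These were the 4 named above and Col15a1, Il6st, Fbln2, Cd74 and Selp, all lower, and Rnf20, a ubiquitin ligase for histone H2B, which was higher. Rnf20 had 146 counts in TCRKO and 2 in the 3 other WT libraries, which gives a ratio of 55.9 (interval 15.2 to 466), and it was at 2.02 to 25.8 CPM in the libraries labelled CD8KO and Tie2Cre. At an unadjusted p under 0.05 there were 1436 genes (10.2%) without WT_9771. The shares were 4.51% lower and 5.72% higher. With no overlap they were 5.3% lower and 8.69% higher, over the 14876 genes of the main fit. Fewer WT libraries make no overlap more likely in itself, and these shares were not computed without each other WT library. DESeq2 without WT_9771, a fit added after the data were seen, called 243 genes.

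The 4 called genes kept their direction without WT_9771. Without WT_9748, WT_9749 and WT_9772 in turn, edgeR called 0, 2 and 18 of 15054, 14681 and 14910 genes tested (1394, 1421 and 1456 at an unadjusted p under 0.05). Without any 1 of the 3 TCRKO libraries it called 0 of 17349 to 17417 genes (917 to 1063 unadjusted). The main fit tested 14876 genes, so these counts are out of unlike sets of genes. Each of Fbn1, Cadm3, Trp53inp2 and Col6a2 was lost in 4 or 5 of the 7 fits that leave out a library, and none was lost without WT_9771. With WT_9771 and WT_9772 as the only WT libraries edgeR called 0 of 17477 genes (2066 unadjusted), and with WT_9748 and WT_9749 it called 10 of 16404.

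Among genes lower in TCRKO WT_9771 weighed more. It was the highest WT library for 329 of the 694 genes lower at an unadjusted p under 0.05 (47.4%), and for 35.2% of all genes tested. For WT_9748, WT_9749 and WT_9772 the shares of the 694 were 20%, 16.4% and 16.1%. Without WT_9771, 390 of the 694 stayed lower at that threshold, 109 were no longer tested and 7 turned sign, against 565, 574 and 542 that stayed without each of the other 3. Of the 594 higher genes 437 stayed, and without each of the other 3 libraries 356, 420 and 434 did.

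The shift without WT_9771 was greatest at low levels. At a mean under 2 CPM the median change was -0.42 with all 4 WT libraries and 0.72 without WT_9771, and WT_9771 was the highest WT library for 52.2% of these 4690 genes. At a mean of 10 to 50 CPM the medians were -0.08 and -0.18, and WT_9771 was the highest in 14.9%. At over 50 CPM they were -0.13 and -0.31, with 3.86%. Interstitial collagens, nearly all of low level, went to a median of 2.60 without WT_9771, against 0.08 with it.

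**Figure D4:**
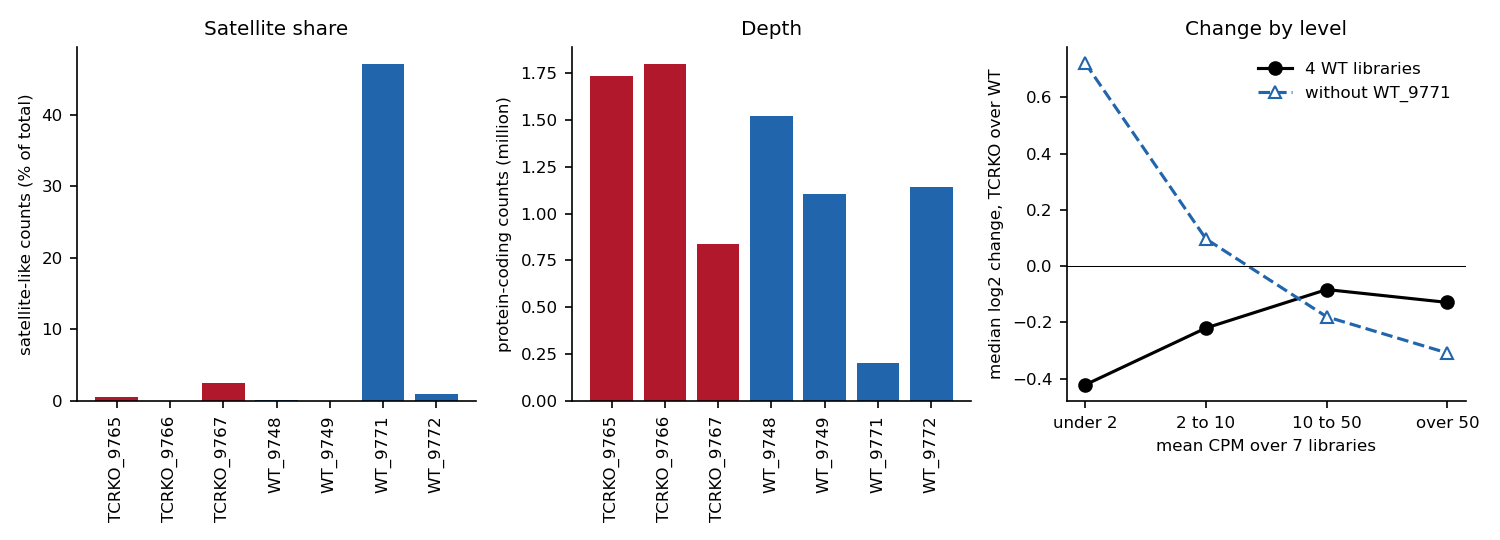
Left, satellite-like counts as a percentage of all counts per library; middle, protein-coding counts per library; right, median log2 change of TCRKO over WT by mean CPM class with 4 WT libraries and without WT_9771. WT_9771 holds 47.1% satellite-like counts and 199922 protein-coding counts, and the 2 lines cross between the second and the third level class.

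**Figure D5:**
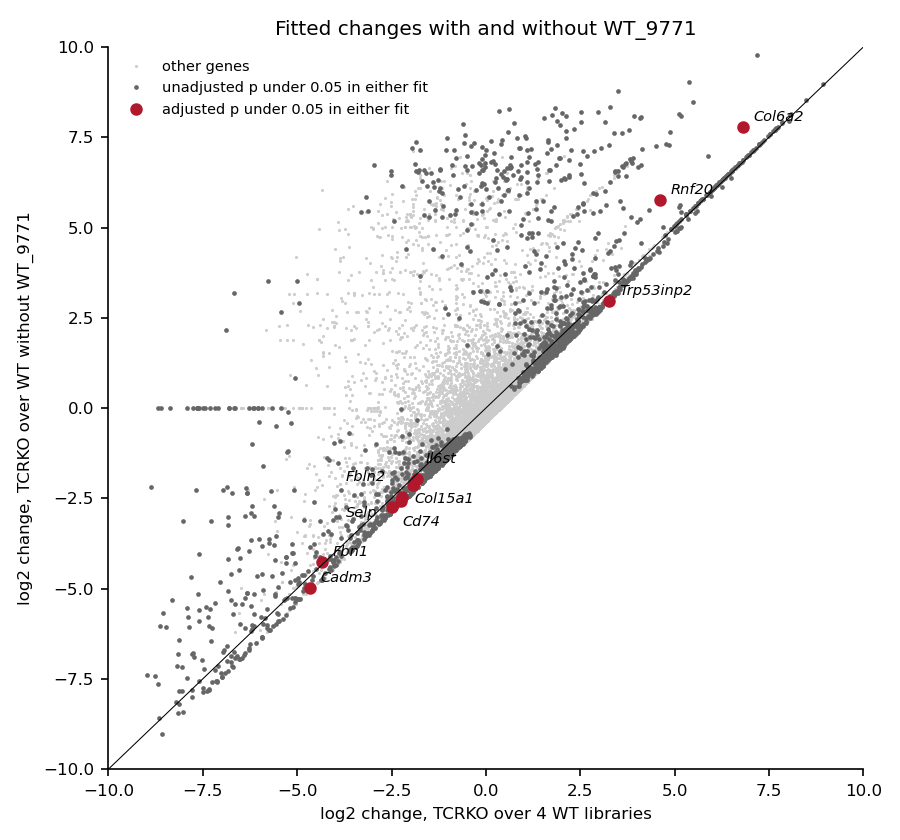
Fitted log2 change of each gene against 4 WT libraries (horizontal axis) and without WT_9771 (vertical axis), with genes under an unadjusted p of 0.05 in dark grey and genes past the adjusted threshold in either fit in red. The 10 red genes lie on or close to the diagonal, many grey genes lie far above it, and fitted changes of genes with few counts depend on the prior count.

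T cell markers summed to 11.8 to 13.3 CPM in TCRKO and 2.65 to 84.5 CPM in WT over 15 genes, 5 of them at 0 counts in all 7 libraries. The highest WT sum was that of WT_9771, where Il7r had 55.8 CPM. Carcinoma and epithelial markers summed to 5.79 to 18.5 CPM in TCRKO and 0.212 to 23.8 CPM in WT over 16 genes, with 5 at 0. Pericyte and smooth muscle markers summed to 41.8 to 46.8 CPM in TCRKO and 45.9 to 90.9 CPM in WT over 14 genes, 0 of them at 0 counts in all 7 libraries. Rgs5, a pericyte marker, stood at 0.246, 0.238 and 2.05 CPM in TCRKO and at 1.16, 6.16, 4.10 and 2.46 CPM in WT (-2.10 ± 1.06, adjusted p = 0.58), with overlap. Tagln, a smooth muscle actin-binding protein, stood at 0.123, 2.61 and 0 CPM in TCRKO and at 0, 14.6, 0.82 and 0.189 CPM in WT, so WT_9749 alone was high. Pdgfrb, the receptor that defines pericytes, had 49 counts in TCRKO, against 1 in WT. With CD8KO and Tie2Cre in place of WT 2 of the 10 were lower and 0 higher at an unadjusted p under 0.05, with a median of -0.81. These were Rgs5 (-3.48 ± 1.07, adjusted p = 0.573) and Tagln (-4.39 ± 1.36, adjusted p = 0.575), which had 10.5, 19 and 35.3 CPM as lowest, median and highest there.

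Macrophage and monocyte markers were the most abundant of these, with sums of 460.5 to 1042 CPM in TCRKO and 369 to 1018 CPM in WT over 20 genes. Against WT they did not go one way: 2 were lower and 2 higher at an unadjusted p under 0.05, with a median of -0.16. Against CD8KO and Tie2Cre 4 were higher and 0 lower, with a median of 0.50, where 2.76% of all genes were higher and 2.94% lower. Fcer1g, an Fc receptor chain, stood at 109, 57.7 and 103 CPM in TCRKO and at 27.1, 39.7, 21.3 and 31.2 CPM in WT (1.58 ± 0.53), with no overlap. The part of macrophage RNA in the class II and interferon values was not tested.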

How the data were processed

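Bulk RNA of sorted endothelial cells was sequenced. The deposited values are RSEM expected counts per gene, per the file headers; the submitters' processing notes name bcl2fastq 2.17, STAR, RSEM 1.2.28, DESeq2 and GRCm38. The library kit does not mark strand, so overlapping antisense genes cannot be told apart. Expected counts were rounded to whole numbers. All 20 libraries in 6 groups were fitted with edgeR 4.0.16 (TMM scaling, its default filter on low counts, robust quasi-likelihood test, R 4.3.3), with Benjamini-Hochberg adjustment over all genes tested and a threshold of 0.05. CPM are counts scaled to the TMM effective library size. DESeq2 1.42.0 and limma 3.58.1 (voom with sample weights) were alternatives, with other scaling, filters and left-out libraries. The script was tested on simulated data. The members, gene lists and named genes were chosen with earlier results of these data known. Named genes were those passing against WT with or without WT_9771, up to 10 per direction with the smallest p among protein-coding genes with a mean of at least 10 CPM, up to 4 members per list in order of p whose mean reached 1 CPM, and fixed label checks. Genes that passed against CD8KO and Tie2Cre alone (Masp1) and any other gene named were chosen after their values were seen. Gene-set tests were not run. Some genes stand on several lists, so the lists are not independent of each other. Some members of the lists are counted but not reported by name here.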

Additional observations from a re-analysis of the deposited data

Results flagged for a closer look

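In 18 of 133 values tested, 1 of the 4 WT libraries lay far from the other 3, by Dixon's test at the 95% level. Chance alone marks about 1 group in 20 where values are independent and normally distributed, which was not shown for CPM of genes. Where 3 libraries are at 0, as for Pdgfrb and Col6a1, any count in the remaining library is marked. The 3 TCRKO libraries are too few to be tested in this way. WT_9771 was the library in 10 of the 18. It held 47.1% satellite-like counts, against at most 0.983% in the other 3. Its Selp was 32.8 CPM against 137 to 155, its Pecam1 435 CPM against at least 1077, its Rnf20 1.64 CPM against at most 0.212, and its Pdgfrb 0.82 CPM, from 1 count, against 0. The mean log2 level of a list was low in WT_9771 for tip cell genes at 5.04, IL-6 genes at 3.82, basement membrane genes at 6.56, matricellular genes at 4.23 and amino acid genes at 2.49. WT_9772 stood high for Apln at 288 CPM, Smad1 at 63.2 CPM, Col6a1 at 8.14 CPM, Dusp1 at 898 CPM and the hypoxia list at 3.83. WT_9748 stood low for Asns at 0.662 CPM, and WT_9749 stood high for Cdk6 at 24.4 CPM and Tagln at 14.6 CPM.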

How the results depend on the processing

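The 4 calls of TCRKO against WT became 9 with RLE factors, 31 with no filter on low counts, 15 with a filter of 5 CPM in 10 libraries, 177 with DESeq2 and 0 with only the compared groups fitted (550 at an unadjusted p under 0.05). They became 15 without WT_9771 and Tie2Cre_9501, the 2 satellite-rich libraries, 0 with WT_9771 and WT_9772 as the only WT libraries (2066 unadjusted) and 10 with WT_9748 and WT_9749 as the only ones. Leaving out 1 library gave 0 to 18 calls. The genes tested also differed, with 14876 in the main fit, 9644 with only the compared groups and 33410 with no filter. DESeq2 without WT_9771 gave 243. That fit and the subtraction of length class medians were added after the data were seen. The 8 calls against the libraries labelled CD8KO and Tie2Cre became 26 with no filter, 14 with the stricter filter, 104 with DESeq2 and 24 with limma-voom, and 0 to 7 when 1 library was left out. The causes were not tested. The median log2 change with no filter on low counts was -0.42 for microfibril genes, -1.03 for interferon-gamma genes, -0.45 for adhesion molecules and 0.59 for amino acid genes. With a filter of 5 CPM in 10 libraries the median was -1.62 for microfibril genes, 3.90 for interstitial collagens, -0.66 for matricellular genes, -0.52 for adhesion molecules and -0.28 for hypoxia genes. With limma-voom the median was 1.16 for interstitial collagens, 0.81 for cholesterol synthesis, 1.43 for amino acid genes and 0.54 for hypoxia genes. With only the compared groups fitted the median was 2.31 for interstitial collagens and 0.84 for amino acid genes. Without the 2 satellite-rich libraries the median was -0.73 for microfibril genes, 2.69 for interstitial collagens, -0.15 for adhesion molecules, 1.07 for amino acid genes and 0.55 for hypoxia genes. With WT_9771 and WT_9772 as the only WT libraries the median was -0.37 for arterial genes, 0.042 for VEGF genes, 0.46 for Notch genes, 0.25 for microfibril genes, -0.81 for interstitial collagens, 0.33 for coagulation genes, -0.73 for interferon-gamma genes, -0.88 for MHC class II, -1.16 for adhesion molecules, 1.45 for cholesterol synthesis, 1.46 for amino acid genes and 0.75 for heat shock proteins. With WT_9748 and WT_9749 as the only WT libraries the median was 5.51 for interstitial collagens, -0.27 for adhesion molecules, 0.86 for cholesterol synthesis, 0.68 for amino acid genes, 0.59 for hypoxia genes, 0.74 for heat shock proteins and 0.91 for cell cycle genes. With DESeq2 without WT_9771 the median was -0.81 for microfibril genes, 2.62 for interstitial collagens, -0.21 for adhesion molecules, 1.02 for amino acid genes and 0.49 for hypoxia genes. Leaving out 1 library at a time gave medians of -1.66 to -0.61 for venous genes, -1.16 to -0.48 for IL-6 genes, -0.64 to 0.19 for Notch genes, -1.03 to 0.23 for microfibril genes, -1.64 to 2.60 for interstitial collagens, -1.30 to -0.95 for interferon-gamma genes, -1.74 to -1.31 for chemokines, -1.02 to -0.23 for adhesion molecules, 0.28 to 0.87 for cholesterol synthesis, 0.032 to 1.19 for amino acid genes and 0.012 to 0.47 for hypoxia genes. Of 27 lists under 18 alternatives, 70 of 486 medians moved by more than the spread within groups. Only genes that passed in the main fit could stop passing, and most of the 96 genes tallied here did not pass there. The tally therefore says little on how stable the calls were. Of 1719 values for 96 genes, 1552 kept their direction and side of the threshold, 141 newly passed, 24 no longer passed and 2 reversed. These were Tagln without WT_9749 (2.25) and with WT_9771 and WT_9772 as the only WT libraries (1.41), and leaving out 1 library gave it -5.44 to 2.25. WT_9749 held 69 of its 71 WT counts. No paired analysis was possible because each library number occurs once. Depth limits low genes most in WT_9771, where tested genes had a median of 5 counts, against 13 to 15 in the other WT libraries.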

Other observations

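Genes of secreted enzymes and small peptides not described above also differed at an unadjusted p under 0.05, and none passed the adjusted threshold of edgeR. All fold changes here are log2 values ± SE between 3 TCRKO and 4 WT libraries, with the spread estimated over all 20 libraries. Adamts9, a metalloprotease that cleaves versican, stood at 98.0, 63.7 and 67.1 CPM in TCRKO and at 229, 196, 104 and 106 CPM in WT (-1.06 ± 0.39). Timp3, a metalloprotease inhibitor bound to matrix, stood at 214, 208 and 144 CPM in TCRKO and at 296, 465, 312 and 378 CPM in WT (-0.94 ± 0.35). Both were lower in all TCRKO libraries than in all WT libraries. Plat, the tissue plasminogen activator, stood at 20.1, 39.9 and 20.9 CPM in TCRKO and at 61.2, 52.2, 57.4 and 62.1 CPM in WT (-1.11 ± 0.48). S100a10, a membrane partner of plasminogen activation, stood at 33.1, 46.6 and 48.2 CPM in TCRKO and at 8.61, 22.3, 7.38 and 32.0 CPM in WT (1.26 ± 0.50). These 2 coagulation genes lay on opposite sides, and neither overlapped between the groups. Gas6, a ligand of the TAM receptor kinases, had 1, 1 and 1 counts in TCRKO, against 26, 1, 0 and 30 in WT. Its groups overlapped, and WT_9748 and WT_9772 held nearly all WT counts. Sele, which encodes E-selectin, had 0, 0 and 1 counts in TCRKO, against 38, 64, 0 and 102 in WT, so it overlapped through WT_9771. Ece1, the enzyme that activates endothelin, stood at 249, 274 and 236 CPM in TCRKO and at 671, 604, 317 and 338 CPM in WT (-0.93 ± 0.35). It did not overlap between the groups. Edn1, the endothelin-1 peptide, stood at 2.34, 4.63 and 2.05 CPM in TCRKO and at 10.4, 7.22, 1.64 and 12.5 CPM in WT (-1.43 ± 0.67). Its groups overlapped. Lgals1, galectin-1, stood at 23.8, 48.2 and 58.7 CPM in TCRKO and at 2.81, 8.49, 9.02 and 11.4 CPM in WT (2.47 ± 0.76). Galectin-1 was higher in all TCRKO libraries than in all WT libraries.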
